A study of Mus musculus with 4 samples.

Results

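The polycystin channel family, with the cation channel gene Pkd2l1 at its centre, was described in spermatogonial stem cells (SSCs) of the mouse, the cells of the testis that maintain sperm production, grown in culture. Its 7 members, Pkd2l1, Pkd2, Pkd2l2, Pkd1, Pkd1l1, Pkd1l2 and Pkd1l3, were taken by symbol from the 37653 genes of the deposited FPKM table and joined by identifier to the 55335 genes of the count table. Pkd2l1 was chosen by its own measured counts and FPKM, near absent in wild-type (WT) libraries and present in both Tex11PM/Y libraries, so those values are given as a description with no test. The other 6 members were taken by name. Poly(A) RNA of cells collected on a sorter was sequenced in 2 libraries labelled Tex11PM/Y and 2 labelled WT. Tex11, on the X chromosome, acts in meiotic recombination, and the labels do not define PM. All cells came from C57/BL6*DBA2 mice at postnatal day 10, were kept in culture with regular passages, and nothing in the labels says that libraries of a genotype had different donors or cultures. A p-value here reflects only how these libraries vary, which may be technical.

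Polycystins fall into a channel type and a receptor type. PKD2-type proteins (Pkd2, Pkd2l1, Pkd2l2) are TRP-family cation channels, also called TRPP channels. PKD1-type proteins (Pkd1, Pkd1l1, Pkd1l2, Pkd1l3) are much larger, with a long extracellular part, and several pair with a PKD2-type partner. Many of these complexes sit in the primary cilium, and human mutations in PKD1 and PKD2 cause polycystic kidney disease. Pkd2l1 itself is known from sour-sensing taste cells, where it is found with Pkd1l3, from neurons that contact the cerebrospinal fluid, and from primary cilia, where it works with Pkd1l1.

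Total counts were between 19047148 and 19804951 per library. A count of 0 allows up to 3 counts, which correspond to between 0.149 and 0.169 CPM, the depth-scaled count with TMM library sizes. Intervals and this limit cover counting error only. Tex11 held 450 and 187 counts in Tex11PM/Y libraries A and B, against 1182 and 2491 counts in WT replicates 1 and 2. Both Tex11PM/Y libraries were thus below both WT libraries. Genes that define SSCs and germ cells (Ddx4, Dazl, Zbtb16, Ret and Gfra1) had at least 2217 counts in every library, and the 14 germ cell markers summed to 3947 and 3046 CPM in libraries A and B and to 2869 and 3053 CPM in WT replicates 1 and 2. Of these 14, 1 was higher in both Tex11PM/Y libraries and 1 was lower, where 16.1% and 16.3% of all tested genes were. The higher gene was Zbtb16, with 608 and 489 CPM in libraries A and B and 227 and 355 CPM in WT replicates 1 and 2. Markers of other cells moved between libraries: the 15 fibroblast genes summed to 552 and 6037 CPM in libraries A and B and to 16361 and 4850 CPM in WT replicates 1 and 2. In bulk RNA, fewer cells of a type and less RNA per cell cannot be told apart.

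Pkd2l1 RNA was present in both Tex11PM/Y libraries and at the edge of detection in both WT libraries. It had 82 and 111 counts in libraries A and B, against 3 and 1 counts in WT replicates 1 and 2. These counts correspond to 4.13 CPM (95% Poisson interval 3.28 to 5.13) in library A and 5.53 CPM (4.55 to 6.66) in library B, against 0.169 CPM (0.0348 to 0.493) in WT replicate 1 and 0.0506 CPM (0.00128 to 0.282) in WT replicate 2. The intervals of the Tex11PM/Y libraries overlapped each other and lay above those of both WT libraries, a gap that the choice of the gene favoured. The WT values did not exceed the limit that a count of 0 allows.

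Summed over libraries, Pkd2l1 had 193 counts in Tex11PM/Y and 4 in WT, a ratio of 45.4 after scaling to library size (95% exact interval 17.5 to 168, counting error only). The gene was chosen on these counts, so the interval is no test of genotype. Group means were 4.83 ± 0.991 CPM in Tex11PM/Y and 0.110 ± 0.0834 CPM in WT (SD, n = 2 each). The fitted log2 fold change was 5.41 (standard error, SE, 0.91). Pkd2l1 passed the filter on low counts, which 17262 genes passed, only through its Tex11PM/Y libraries. The fitted value was 6.39 without WT replicate 1 and 4.77 without WT replicate 2.

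**Figure D1:**
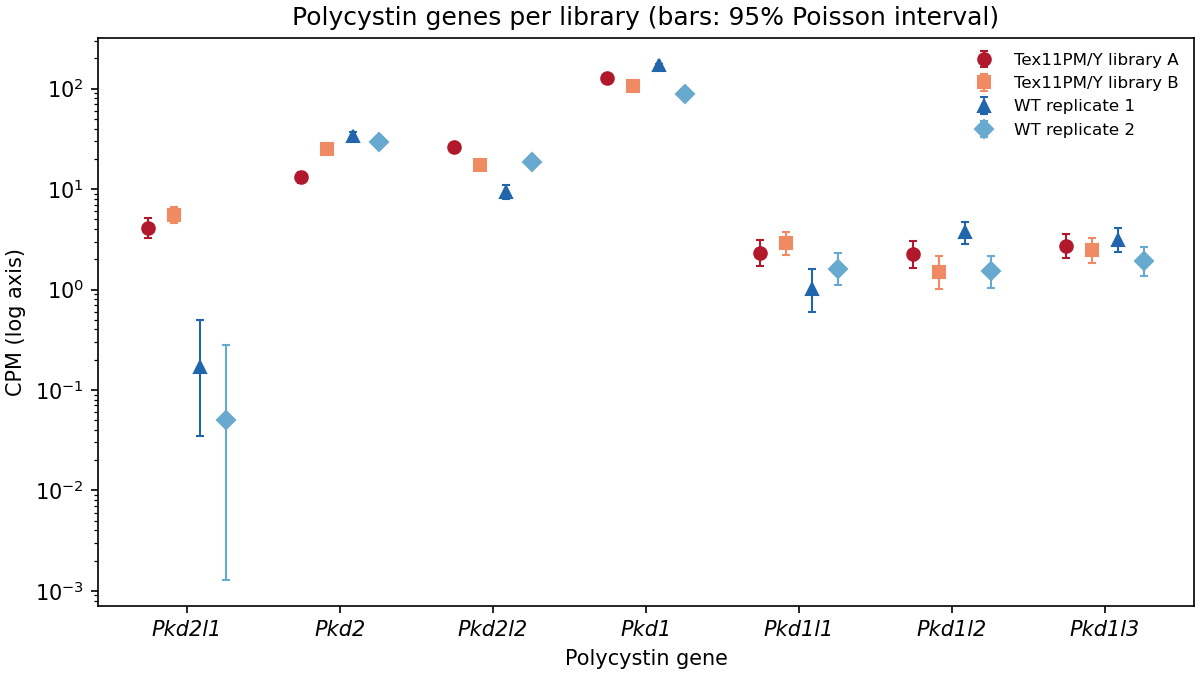
Level of each polycystin gene in CPM on a log axis, with 1 point per library (red and orange, Tex11PM/Y libraries A and B; dark and light blue, WT replicates 1 and 2) and 95% Poisson intervals as bars. The Tex11PM/Y points of Pkd2l1 lie at 4.13 and 5.53 CPM, against 0.169 and 0.0506 CPM in WT, while the points of the other genes lie within a narrower range.

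In deposited FPKM, a unit per length of transcript, it stood at 0.866 and 1.30 in libraries A and B, above 64.4% and 67.4% of all genes of the table. In WT replicates 1 and 2 it stood at 0.0342 and 0.0150 FPKM, above 39.7% and 31.4% of genes. These shares count genes listed at 0, since 27372 and 26967 of the 37653 genes were above 0 in libraries A and B, and 24826 and 26732 in WT replicates 1 and 2. The gene, ENSMUSG00000037578.4, lies on the minus strand of chromosome 19 from 44147637 to 44192442 in mm10, is protein-coding in GENCODE M21, and has 3321 bases of exon. No other gene of the count table overlaps it, so its reads are not shared with a partner on either strand.

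The genes closest to Pkd2l1 on chromosome 19 did not share the size of its difference. Bloc1s2, a subunit of the BLOC-1 and BORC complexes whose gene lies 1.19 kb downstream, had 33.6 and 31.5 CPM in libraries A and B and 32.8 and 31.7 CPM in WT replicates 1 and 2. Its log2 fold change was 0.015 (SE 0.35, edgeR adjusted p = 0.995), and the groups overlapped. Cwf19l1, 11.8 kb downstream, had 32.7 and 30.1 CPM in libraries A and B and 24.2 and 31.4 CPM in WT replicates 1 and 2. The groups also overlapped for Chuk, which encodes the kinase IKK-alpha (log2 fold change 0.52, SE 0.37, edgeR adjusted p = 0.884), and for Erlin1, a protein of the endoplasmic reticulum (log2 fold change -0.11, SE 0.34, edgeR adjusted p = 0.964).

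Upstream of Pkd2l1, the nearest pair of genes had more reads in the Tex11PM/Y libraries. Scd3, a fatty acid desaturase gene 10.8 kb upstream on the opposite strand, had 6.40 and 7.13 CPM in libraries A and B and 3.48 and 3.94 CPM in WT replicates 1 and 2. Both Tex11PM/Y libraries were thus above both WT libraries for Scd3, where 16.1% of all tested genes were. The log2 fold change of Scd3 was 0.86 (SE 0.58) and did not pass the threshold (edgeR adjusted p = 0.884). The predicted gene Gm50323, 33.4 kb upstream on the same strand as Pkd2l1, had 4 and 5 counts in libraries A and B and 0 in both WT libraries, too few to be tested. The remaining predicted genes in the window, Gm6951, Gm35183 and Gm24336, had at most 9 counts in any library. Genes of chromosome 19 as a whole had medians near 0 in the Tex11PM/Y libraries: each library against the mean of the other 3 had a median log2 difference over 572 tested genes of -0.031 in library A and 0.026 in library B, and of 0.11 and 0.0049 in WT replicates 1 and 2.

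**Figure D2:**
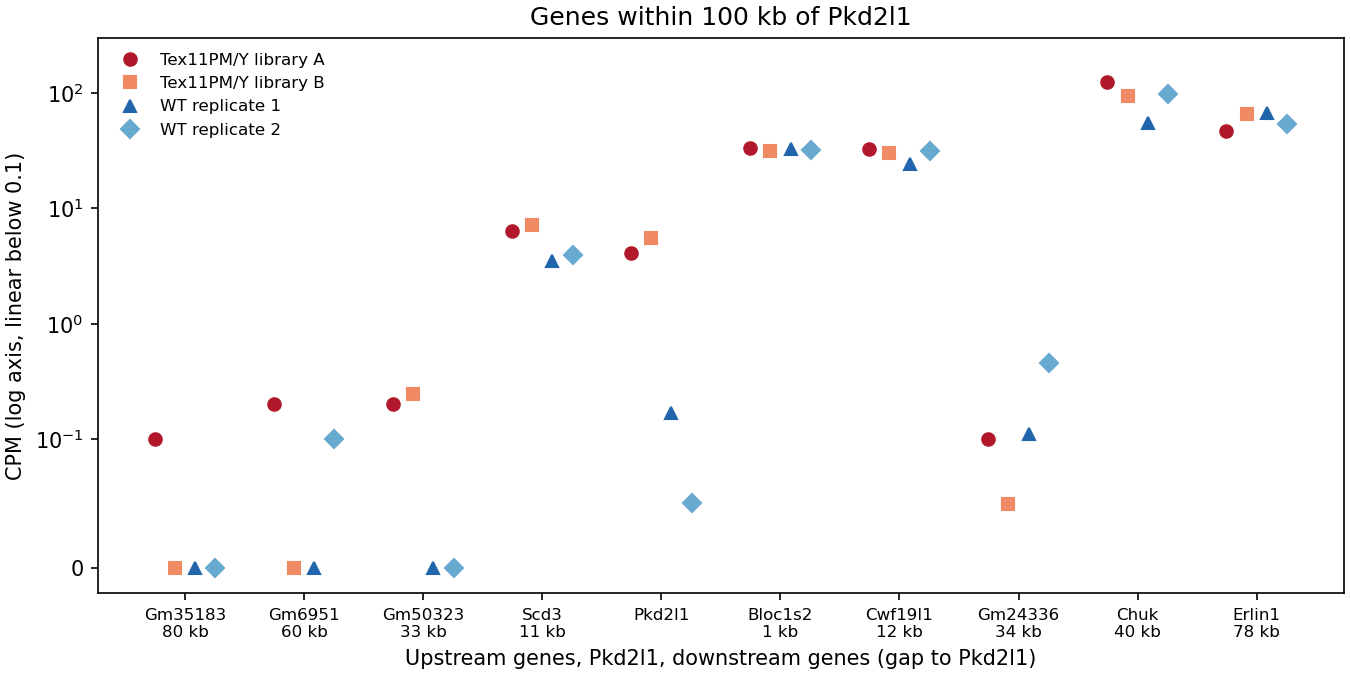
Genes within 100 kb of Pkd2l1, ordered from upstream (left) to downstream (right) with their gap in kb, against their level in CPM on an axis that is logarithmic above 0.1 and linear below. Points are the 4 libraries (red and orange, Tex11PM/Y; blue, WT); Bloc1s2 lies between 31.5 and 33.6 CPM in every library, while Pkd2l1 spans 0.0506 to 5.53 CPM.

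Of the other PKD2-type channel genes, Pkd2 was lower in both Tex11PM/Y libraries and Pkd2l2 overlapped between the groups. Pkd2, polycystin-2, on chromosome 5 from 104459450 to 104505819, had 259 and 500 counts in libraries A and B, against 603 and 581 counts in WT replicates 1 and 2. This is 13.0 and 24.9 CPM in Tex11PM/Y and 33.9 and 29.4 CPM in WT. Library A held the lowest value and library B was close to the WT libraries. The log2 fold change was -0.74 (SE 0.45) and did not pass the threshold (edgeR adjusted p = 0.884); it was -0.34 without library A and -1.32 without library B.

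Pkd2l2, whose transcript is known mainly from the testis, lies on chromosome 18 from 34409423 to 34444116. It had 26.2 and 17.5 CPM in libraries A and B, from 520 and 352 counts, against 9.33 and 18.4 CPM in WT replicates 1 and 2, from 166 and 364 counts. WT replicate 2 and library B were alike, and the extremes were WT replicate 1 and library A. The log2 fold change of 0.66 (SE 0.50) did not pass the threshold (edgeR adjusted p = 0.884), and was 0.22 without WT replicate 1 and 1.20 without WT replicate 2.

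Together the 3 PKD2-type genes summed to 7.74 and 8.34 FPKM in libraries A and B and to 6.23 and 7.88 FPKM in WT replicates 1 and 2. Pkd2l1 made up 11.2% and 15.5% of this sum in Tex11PM/Y libraries A and B, against 0.548% and 0.190% in WT replicates 1 and 2. Pkd2 was the leading channel gene in both WT libraries, at 77.1% and 58.7% of the sum, and in library B, at 48.6%. In library A Pkd2l2 led instead, with 62.2%, and Pkd2 held 26.6%. These shares are a description, as Pkd2l1 was chosen for its level.

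**Figure D3:**
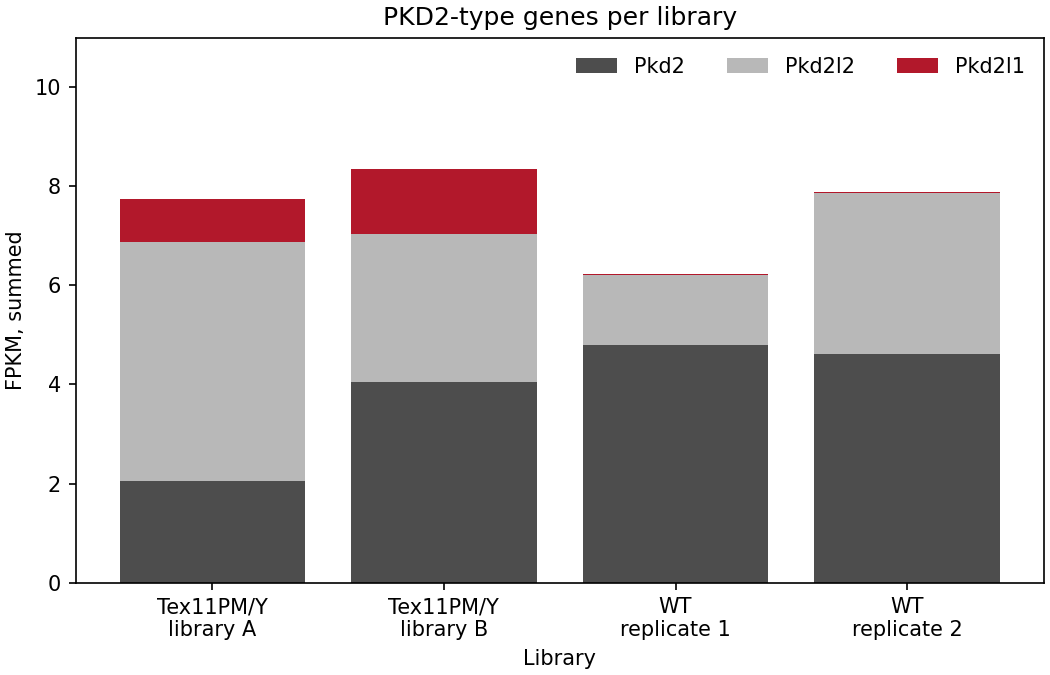
Deposited FPKM of the PKD2-type genes stacked per library, with Pkd2 in dark grey, Pkd2l2 in light grey and Pkd2l1 in red. The red part is 11.2% and 15.5% of the bar in Tex11PM/Y libraries A and B, and under 1% in both WT libraries.

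Among the PKD1-type genes, Pkd1 carried nearly all of the signal. Pkd1, polycystin-1, on chromosome 17 from 24549834 to 24596508, had 127 and 107 CPM in libraries A and B, from 2519 and 2145 counts, against 172 and 87.6 CPM in WT replicates 1 and 2, from 3053 and 1733 counts. Both Tex11PM/Y values fell between those of the WT libraries. The log2 fold change was -0.15 (SE 0.38, edgeR adjusted p = 0.954), and turned to 0.39 without WT replicate 1. In FPKM, Pkd1 was 91.8% and 90.5% of the PKD1-type sum in libraries A and B and 94.0% and 91.6% in WT replicates 1 and 2.

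Pkd1l1, which pairs with Pkd2 in the embryonic node and with Pkd2l1 in primary cilia, was low throughout and higher in both Tex11PM/Y libraries. It had 46 and 58 counts in libraries A and B, against 18 and 32 counts in WT replicates 1 and 2. This is 2.32 CPM (95% Poisson interval 1.70 to 3.09) and 2.89 CPM (2.19 to 3.74) in Tex11PM/Y, against 1.01 CPM (0.599 to 1.60) and 1.62 CPM (1.11 to 2.28) in WT. The groups did not overlap, although the counting intervals of both Tex11PM/Y libraries overlapped that of WT replicate 2. The log2 fold change of 0.98 (SE 0.68) did not pass the threshold (edgeR adjusted p = 0.884).

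Pkd1l2 and Pkd1l3, both on chromosome 8, overlapped between the groups. Pkd1l3, the partner of Pkd2l1 in taste cells, had 54 and 50 counts in libraries A and B and 56 and 38 counts in WT replicates 1 and 2 (log2 fold change 0.041, SE 0.66, edgeR adjusted p = 0.993). Its fitted sign was not stable, at -0.021 without library A and -0.29 without WT replicate 2. Pkd1l2 had 45 and 30 counts in libraries A and B and 66 and 30 counts in WT replicates 1 and 2 (log2 fold change -0.47, SE 0.74, edgeR adjusted p = 0.924), and turned to 0.28 without WT replicate 1. The high value of WT replicate 1 coincided with a shift of its chromosome: over 921 tested genes of chromosome 8, the median log2 difference from the average of the remaining 3 libraries was 0.40 in WT replicate 1, and from -0.14 to -0.12 in the others. The part of that shift in the counts of Pkd1l2 and Pkd1l3 was not tested.

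All 7 members passed the filter on low counts. Of the 6 members other than Pkd2l1, 0 passed the edgeR threshold, an adjusted p under 0.05, where 0% of 17262 tested genes did, and 0 had an unadjusted p under 0.05, where 2.7% of all genes did (0.991% higher and 1.71% lower). DESeq2 and limma also called 0 of the 6. Both Tex11PM/Y libraries were above both WT libraries for 1 of the 6 (Pkd1l1), where 16.1% of all genes were, and below for 1 (Pkd2), where 16.3% were. These shares are near the background and single out no member. The median log2 fold change of the 6 was -0.054, and that of all tested genes 0.014.

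By level per length, the family kept Pkd1 at the top of every library and changed order below it. In Tex11PM/Y, mean FPKM was 7.53 ± 0.743 for Pkd1, 3.90 ± 1.28 for Pkd2l2, 3.06 ± 1.41 for Pkd2, 1.08 ± 0.304 for Pkd2l1, 0.306 ± 0.0135 for Pkd1l1, 0.257 ± 0.0169 for Pkd1l3 and 0.166 ± 0.0202 for Pkd1l2 (SD, n = 2). In WT it was 7.68 ± 2.99 for Pkd1, 4.72 ± 0.127 for Pkd2, 2.32 ± 1.30 for Pkd2l2, 0.212 ± 0.0951 for Pkd1l2, 0.205 ± 0.0373 for Pkd1l3, 0.152 ± 0.0474 for Pkd1l1 and 0.0246 ± 0.0136 for Pkd2l1 (SD, n = 2). Neighbours in these orders whose libraries overlapped were Pkd2l2 and Pkd2 in Tex11PM/Y, and Pkd1l2, Pkd1l3 and Pkd1l1 in WT. Pkd2l1 ranked 4 of 7 in both Tex11PM/Y libraries and 7 of 7 in both WT libraries, in FPKM, in TPM and in counts per kilobase.

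Several members share their end with a gene on the opposite strand, and the library kit is not stated to keep strand. Pkd2l2 overlaps Fam13b over 517 exon bases, 12.9% of its exon length. Pkd2l2 had 19.98 and 20.1 counts per 100 counts of Fam13b in libraries A and B, and 21.6 and 18.6 in WT replicates 1 and 2. The counts of these genes thus kept nearly the same ratio while Fam13b itself spanned 767 counts in WT replicate 1 to 2603 in library A. Pkd1l3 overlaps Ist1, an ESCRT-III gene, over 127 exon bases, and had 1.29 and 1.58 counts per 100 counts of Ist1 in libraries A and B and 1.45 and 1.36 in WT replicates 1 and 2. Pkd1 overlaps Tsc2, the tuberous sclerosis gene, over 693 exon bases, and showed no such constancy: it had 63.6 and 59.8 counts per 100 counts of Tsc2 in libraries A and B and 121 and 50.9 in WT replicates 1 and 2. Whether reads of the partner enter the counts of Pkd2l2 or Pkd1l3 was not tested.

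**Figure D4:**
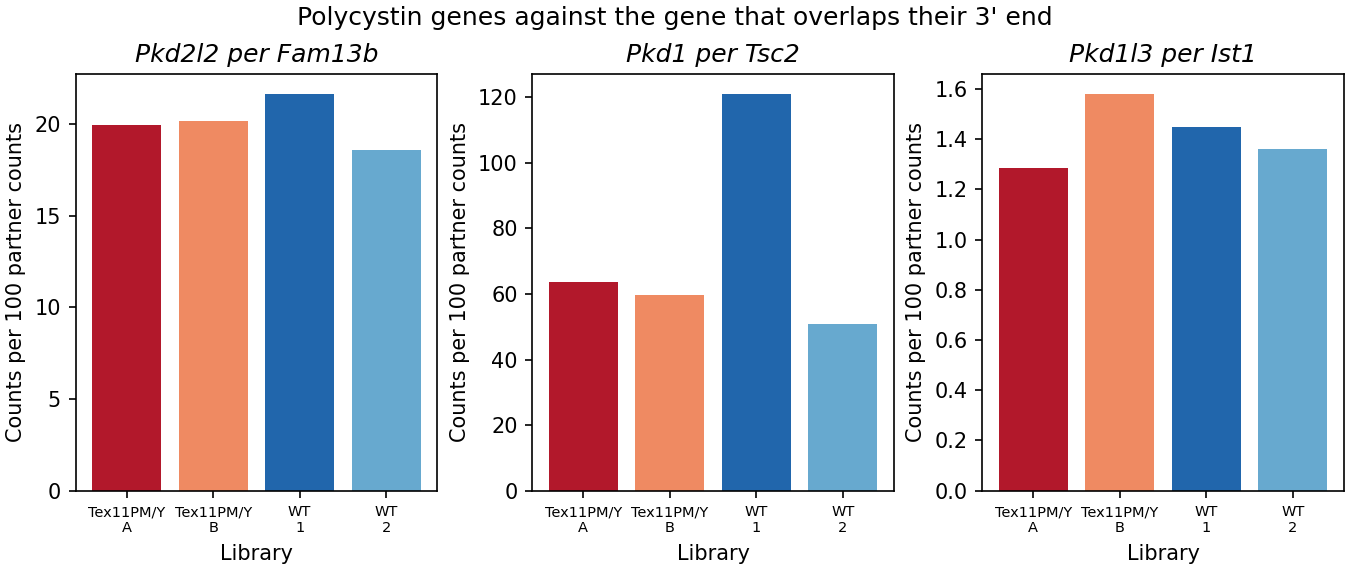
Counts of Pkd2l2, Pkd1 and Pkd1l3 per 100 counts of the gene that overlaps their end (Fam13b, Tsc2 and Ist1), with 1 bar per library, Tex11PM/Y left of WT. Bars of Pkd2l2 lie between 18.6 and 21.6, and WT replicate 1 stands at 121 for Pkd1, against 63.6 or less in the other libraries.

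RefSeq promoter sequences of build GRCm38.p6 were matched for 5 of the 7 members. Pkd2l1 and Pkd2l2 were not among them. The 250 bases before the start are shown for Pkd1 and Pkd2, the members with the highest levels in WT, 5′ to 3′ on the strand of the gene, which is plus for both, with each CG dinucleotide in capitals. The start is that of RefSeq, which lies downstream of the start in the count table. The end of each window thus falls inside the gene as counted. The counted gene starts at 24549834 for Pkd1 and at 104459450 for Pkd2, so far more of the Pkd1 window lies inside its gene.
Pkd1, chr17:24549700-24549949: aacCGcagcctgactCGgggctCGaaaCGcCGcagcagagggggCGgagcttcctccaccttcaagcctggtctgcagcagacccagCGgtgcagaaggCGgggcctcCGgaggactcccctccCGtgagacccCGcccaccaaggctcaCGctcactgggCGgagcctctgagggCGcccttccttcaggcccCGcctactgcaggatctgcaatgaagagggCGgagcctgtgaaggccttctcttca
Pkd2, chr5:104459207-104459456: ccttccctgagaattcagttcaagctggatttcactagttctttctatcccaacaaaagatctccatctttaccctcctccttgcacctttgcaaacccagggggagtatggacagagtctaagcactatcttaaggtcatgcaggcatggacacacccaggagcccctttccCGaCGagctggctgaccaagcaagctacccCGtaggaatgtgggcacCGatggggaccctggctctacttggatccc
CG occurs 16 times in the Pkd1 window and 4 times in the Pkd2 window. Among 32851 promoter windows of this length the median was 6, 25.4% had at least as many as Pkd1 and 62.2% at least as many as Pkd2. The window of Pkd1l2 held 4. The RefSeq starts of Pkd1l1 and Pkd1l3 were not found in the M21 transcripts, and their windows are not described.

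Genes with the profile most like that of Pkd2l1 were sought among 14483 tested genes, by the Euclidean distance between centred log2 CPM values over the 4 libraries. The nearest was Gml2, at a distance of 2.12, with 15 and 19 counts in libraries A and B and 3 and 0 counts in WT replicates 1 and 2. Others were H2-T24, a class I-like histocompatibility gene, at 2.59, Pabpc4l at 2.67 and Pifo, a gene of the primary cilium, at 2.67. Pifo had 13 and 22 counts in libraries A and B and 2 and 3 counts in WT replicates 1 and 2. Each of these was higher in both Tex11PM/Y libraries than in both WT libraries, which the search itself favours.

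Some markers of the cells in which Pkd2l1 is best known were at or near 0, while others had counts in every library. The sum of the taste cell markers was lower in both Tex11PM/Y libraries, and that of the neuron markers overlapped between the groups. Of 8 taste cell markers, Otop1, the proton channel of sour taste, had 2 and 4 counts in libraries A and B and 3 and 4 counts in WT replicates 1 and 2, and Car4 had 5 and 1 counts in libraries A and B and 0 in both WT libraries. The 8 markers summed to 16.2 and 23.2 CPM in libraries A and B and to 54.4 and 34.1 CPM in WT replicates 1 and 2, mostly from Ncam1 and Chga. The 10 markers of neurons that contact the cerebrospinal fluid summed to 8.36 and 19.7 CPM in libraries A and B and to 7.25 and 16.0 CPM in WT replicates 1 and 2, mostly from Gata2 and Gata3. Gad2 and Sst each reached at most 1 count in a library. Gad1 was not so low, with 43 and 15 counts in libraries A and B and 4 and 56 counts in WT replicates 1 and 2. Of the 4 taste cell and 5 neuron markers tested, 0 had an unadjusted edgeR p under 0.05, where 2.7% of all genes did. The part of such cells in the level of Pkd2l1 was not tested.

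Markers of stromal and other testis cells varied among the libraries, and their part in the level of Pkd2l1 was not tested. The 15 fibroblast markers summed to 552 and 6037 CPM in libraries A and B. In WT replicates 1 and 2 they summed to 16361 and 4850 CPM. Pkd2l1 stood at 4.13 and 5.53 CPM in libraries A and B, against 0.169 and 0.0506 CPM in WT replicates 1 and 2. Macrophage markers, 6 genes, summed to 23.6 and 1117 CPM in libraries A and B and to 588 and 459 CPM in WT replicates 1 and 2. Peritubular myoid markers, 6 genes, summed to 7.50 and 32.04 CPM in libraries A and B and to 195 and 34.6 CPM in WT replicates 1 and 2, with 4 of them lower in both Tex11PM/Y libraries, where 16.3% of all genes were. The myoid marker Tagln had 12 and 9 counts in libraries A and B and 26 and 14 counts in WT replicates 1 and 2. Its deposited FPKM was 1.39 and 12.3 in libraries A and B and 46.0 and 12.8 in WT replicates 1 and 2, so its weight depends on the unit. Of the 15 fibroblast markers 2 were lower in both Tex11PM/Y libraries, and of the macrophage markers 0 separated the genotypes. Sertoli markers (10 genes) summed to between 18.3 and 26.2 CPM in Tex11PM/Y and between 31.6 and 32.6 CPM in WT, with Fshr at 0 in every library. Of the 6 Sertoli markers tested, 1 (Cldn11) was lower in both Tex11PM/Y libraries, where 16.3% of all genes were. It had 12 and 30 counts in libraries A and B, against 56 and 109 counts in WT replicates 1 and 2. Endothelial markers (5 genes) summed to between 19.8 and 21.3 CPM and Leydig markers (5 genes) to between 9.91 and 15.96 CPM over all 4 libraries. Of the endothelial markers 2 were higher and 1 was lower in both Tex11PM/Y libraries, where 16.1% and 16.3% of all genes were.

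The wider polycystin pathway was read from 7 lists with 113 genes, of which 92 were tested. Of these 0 passed the edgeR threshold over all genes, and 1 (Gli2) had an unadjusted p under 0.05, where 2.7% of all genes did. Without library B, 2 of them passed it, Gli2 and Trpm7, among 518 genes called in all. List medians of the log2 fold change were 1.001 for relatives of polycystin-1 and fibrocystin (2 tested), -0.14 for folding in the endoplasmic reticulum (10), 0.13 for ciliary trafficking and cystic kidney genes (33), 0.057 for the Hedgehog pathway (14), -0.15 for other TRP channels (12), -0.13 for calcium stores (15) and -0.52 for genes of the left-right node (6). The median of all tested genes was 0.014. The lists were drawn up with earlier results of these data known.

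**Figure D5:**
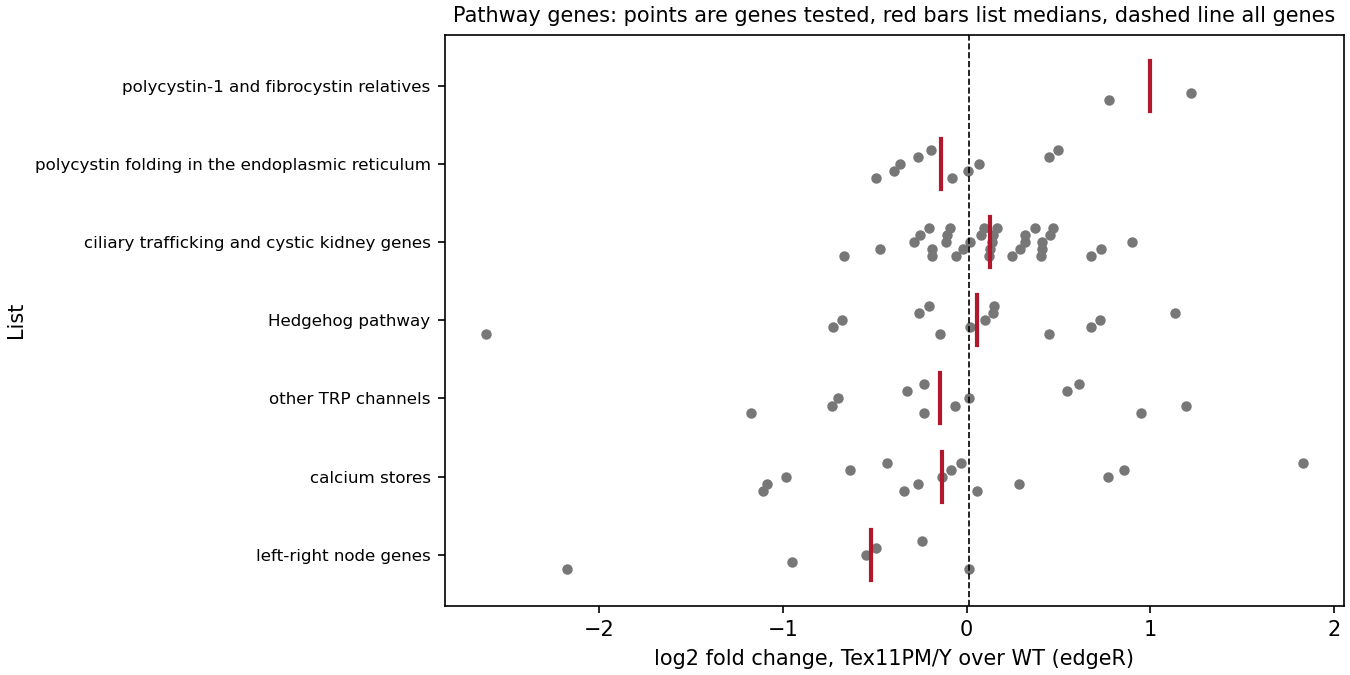
Log2 fold change, Tex11PM/Y over WT, of each tested gene of the 7 pathway lists (grey points), with the list median as a red bar and the median of all tested genes, 0.014, as a dashed line. Of 92 genes shown 0 passed the edgeR threshold.

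Relatives of polycystin-1 were low in every library. Pkdrej, a polycystin-1 relative of sperm, had 19 and 11 counts in libraries A and B and 5 and 7 counts in WT replicates 1 and 2 (log2 fold change 1.22, SE 0.78, edgeR adjusted p = 0.884). Pkhd1, fibrocystin, had 50 and 53 counts in libraries A and B and 21 and 36 counts in WT replicates 1 and 2 (log2 fold change 0.78, SE 0.66, edgeR adjusted p = 0.884). Pkhd1l1 had at most 12 counts in a library and was not tested. Both tested relatives were higher in both Tex11PM/Y libraries, where 16.1% of all genes were, and neither passed the threshold.

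Genes that fold polycystins and carry them to the cilium were expressed in every library, and none passed the threshold. Ganab, the catalytic subunit of glucosidase II, which polycystins need to mature, had 423 and 511 CPM in libraries A and B, against 657 and 413 CPM in WT replicates 1 and 2. Its partner subunit gene Prkcsh had 119 and 187 CPM in libraries A and B, against 235 and 167 CPM in WT replicates 1 and 2. The groups overlapped for both. Of the 10 folding genes, 1 was higher in both Tex11PM/Y libraries, where 16.1% of all genes were, and 2 were lower, where 16.3% were. The lower genes were Sec61a1, of the translocon, and Hspa5, the chaperone BiP. Their log2 fold changes were -0.36 (SE 0.30) and -0.49 (SE 0.32), each with an edgeR adjusted p of 0.884. Of the 33 ciliary genes, 8 were higher in both Tex11PM/Y libraries, where 16.1% of all genes were, and 1 was lower, where 16.3% were. The most abundant per length were Kif3a, a kinesin of anterograde ciliary transport (log2 fold change 0.46, SE 0.36), Arl3 (-0.47, SE 0.43), Gga1 (-0.09, SE 0.30) and Bicc1 (0.29, SE 0.31), and none passed the threshold (edgeR adjusted p from 0.884 to 0.967).

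In the Hedgehog pathway, which signals through the primary cilium, 2 of the 14 tested genes (Ptch1 and Gli3) were higher in both Tex11PM/Y libraries, where 16.1% of all genes were, and 3 (Gli2, Gas1 and Gpr161) were lower, where 16.3% were. None passed the threshold, and the log2 fold change was -0.73 (SE 0.48) for Gas1 and -0.15 (SE 0.36) for Gpr161. Ptch1, the Hedgehog receptor, had 144 and 185 CPM in libraries A and B, against 35.8 and 114 CPM in WT replicates 1 and 2 (log2 fold change 1.13, SE 0.53, edgeR adjusted p = 0.884). The transcription factor gene Gli3 had 138 and 90.4 CPM in libraries A and B, against 61.6 and 76.2 CPM in WT (log2 fold change 0.73, SE 0.34, edgeR adjusted p = 0.884). Gli2, its relative, had 0.201 and 1.94 CPM in libraries A and B, against 10.1 and 3.14 CPM in WT replicates 1 and 2 (log2 fold change -2.62, SE 1.10, edgeR adjusted p = 0.884). Across libraries Gli2 had the same order as the fibroblast markers from WT replicate 1 down to library A, except that library B and WT replicate 2 changed places, and the part of those cells in its level was not tested. Smo had 56.8 and 98.0 CPM in libraries A and B and 81.4 and 97.2 CPM in WT, and Prkaca 69.9 and 86.7 CPM in libraries A and B and 183 and 68.2 CPM in WT.

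Among the other TRP channels, of which 12 of 25 were tested, Trpm7, a channel fused to a kinase, had the largest fold change named here. It had 280 and 95.8 CPM in libraries A and B, against 57.9 and 107 CPM in WT replicates 1 and 2 (log2 fold change 1.19, SE 0.55, edgeR adjusted p = 0.884), so library A alone stood apart. Mcoln1, the lysosomal channel mucolipin-1, had 54.4 and 43.7 CPM in libraries A and B and 55.1 and 42.0 CPM in WT replicates 1 and 2. Trpv4, a known partner of polycystin-2, had 24.1 and 25.5 CPM in libraries A and B and 33.9 and 17.9 CPM in WT. Trpv2 had 1.56 and 6.58 CPM in libraries A and B and 8.54 and 5.01 CPM in WT. Trpc2 held 0 counts in every library. The groups overlapped for each of the 4 detected channels named here. Of the 12 tested channels, 2 others were lower in both Tex11PM/Y libraries and 0 were higher, where 16.3% and 16.1% of all genes were.

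Calcium store genes were expressed in every library. Orai1, the pore of store-operated calcium entry, had 59.2 and 67.2 CPM in libraries A and B, against 30.5 and 43.7 CPM in WT replicates 1 and 2 (log2 fold change 0.77, SE 0.35, edgeR adjusted p = 0.884). Its relative Orai3 had 42.1 and 41.6 CPM in libraries A and B and 53.3 and 47.3 CPM in WT. Atp2a2, the calcium pump SERCA2, had 280 and 276 CPM in libraries A and B and 420 and 283 CPM in WT. Saraf, an inhibitor of store-operated entry, had 51.7 and 58.6 CPM in libraries A and B and 166 and 52.1 CPM in WT, the high value being that of WT replicate 1. Of the 15 genes, 1 was higher and 5 were lower in both Tex11PM/Y libraries, where 16.1% and 16.3% of all genes were.

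Genes of the left-right node, where Pkd1l1 and Pkd2 act together in the embryo, were low. Dand5, a Nodal antagonist regulated by that complex, had 4.08 and 5.78 CPM in libraries A and B and 5.34 and 4.45 CPM in WT replicates 1 and 2 (log2 fold change 0.011, SE 0.60, edgeR adjusted p = 0.999). Nodal had 0.302 and 1.84 CPM in libraries A and B and 2.19 and 1.97 CPM in WT. Foxj1, a transcription factor of motile cilia, had 3.12 and 1.49 CPM in libraries A and B and 4.83 and 1.92 CPM in WT, and the axonemal dynein gene Dnah11 had 139 and 190 counts in libraries A and B and 90 and 358 counts in WT. Groups overlapped for Dand5, Foxj1 and Dnah11, and Nodal was lower in both Tex11PM/Y libraries. Of the 6 tested genes 0 were higher and 1 was lower, where 16.1% and 16.3% of all genes were.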

How the data were processed

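The authors deposited whole-number read counts, FPKM and TPM for the 4 libraries, in 1 table each. For the steps behind FPKM and TPM, the labels name none. The submitters' processing notes list the build mm10 and the tools featureCounts, StringTie, STAR, fastp and DESeq2, without roles or versions. The columns of the Tex11PM/Y libraries are both headed alike, so these are called libraries A and B, in column order, and cannot be tied to replicate numbers. Identifiers of the counts matched GENCODE M21 with their version for 98.6%. Symbols came from the FPKM table or a reference name table.

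The counts were fitted with edgeR 4.0.16 under R 4.3.3, by the robust quasi-likelihood F test after filterByExpr and TMM scaling and with no term besides genotype. P-values were adjusted by Benjamini-Hochberg over 17262 genes, with a threshold of 0.05. Log2 CPM used a prior count of 2. The fit was tested on simulated data, where it recovered most changed genes at a low dispersion and few at a dispersion near that of these libraries, so a gene that did not pass may still differ. With 2 libraries against 2, no exact permutation test can give a two-sided p under 0.333. Alternatives were other scalings and filters, each library left out, DESeq2 1.42.0, and limma 3.58.1 on log2 FPKM and TPM. Members, lists and named genes were chosen with earlier results of these data known. Named were the members; Tex11; up to 4 genes per list with the highest mean FPKM and up to 4 with the smallest p under 0.05; genes overlapping a member or within 100 kb of Pkd2l1; and, with predicted genes left out, the 5 profiles nearest to Pkd2l1, of which 1 is not reported here. Marker genes were picked for the text with their values in view.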

Additional observations from a re-analysis of the deposited data

How the results depend on the processing

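No paired analysis was possible because the Tex11PM/Y columns are headed alike and cannot be tied to replicate numbers. The log2 fold change of Pkd2l1 was positive in every alternative run, which follows from the values on which the gene was chosen. It was 1.01 with limma on log2(FPKM + 1), 3.22 on log2(FPKM + 0.1) and 1.92 on log2(TPM + 1), scales that compress low levels. With a library left out it was 4.77 to 6.39. The value of Pkd1 turned to 0.017, 0.024 and 0.14 under the same 3 alternatives, and ranged from -0.58 to 0.39 with a library left out (0.39 without WT replicate 1). With a library left out the value of Pkd1l2 ranged from -1.001 to 0.28 and that of Pkd1l3 from -0.29 to 0.42. Of the 6 members other than Pkd2l1, 0 were called under any alternative run. Over all genes, edgeR called 50 with no filter on low counts and from 0 to 518 with a library left out (518 without library B), and DESeq2 called 1, Pkd2l1. Pkd2l1 was also among the genes called with no filter and without library B, and since it was chosen on these values its calls support nothing. The cause was not tested. Of the pathway genes, from 0 to 2 were called with a library left out, Gli2 and Trpm7 without library B. Fits without a Tex11PM/Y or WT library leave 1 library in that genotype, which is assumed to vary like the other pair. Pkd2l1 ranked 4 of 7 in mean Tex11PM/Y level in FPKM, TPM and counts per kilobase. The replicate block and its fit were not run. At this depth Pkd1l1, Pkd1l2 and Pkd1l3 carry wide counting intervals.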

Other observations

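The deposited FPKM values were between 0.525 and 0.965 times the depth-scaled counts per kilobase of exon for the 7 members. The ratio lay between 0.897 and 0.949 for Pkd1 and between 0.525 and 0.711 for Pkd1l3, so the tables weigh the members differently. In library A and in WT replicate 2 Pkd1l1 ranked above Pkd1l3 in FPKM and below it in counts per kilobase.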
